A study of Mus musculus with 8 samples.

Results

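The immediate early genes Egr1, Egr2, Egr3, Fos, Fosb, Fosl1, Fosl2, Jun, Junb and Jund were examined for sites of METTL14 and METTL3 on chromatin in mouse embryonic stem cells. These 10 genes, of 21900 protein-coding genes in the RefSeq table, were taken as a named set. The set was defined by gene name, but it was chosen with earlier results of these data known. A peak was assigned to a gene when it shared at least 1 bp with the gene or with the 2 kb on either side of it. The sites had been mapped by CUT&RUN, in which an antibody directs micrococcal nuclease to a protein on chromatin and the fragments cut free are sequenced. METTL14 was profiled in cells labelled Mettl3 CKO and in Mettl3 control cells, and METTL3 in cells labelled Mettl14 CKO and in Mettl14 control cells, with 2 libraries in each group. What CKO stands for is not written out in the labels, which also name no driver or clone. All 8 libraries came from cells of the C57BL/6 strain grown with serum, LIF, the GSK3 inhibitor CHIR99021 and the MEK inhibitor PD0325901, so the kinase upstream of ERK was inhibited in every group. Since no label states that replicate libraries were made from different cultures, the p-values below reflect library-to-library spread that may be purely technical. The METTL14 lists held 3922 and 1439 peaks in Mettl3 CKO cells and 3129 and 3546 peaks in Mettl3 control cells. The METTL3 lists held 242 and 344 peaks in Mettl14 CKO cells and 353 and 341 peaks in Mettl14 control cells. Read depth is unknown, and a peak list does not measure expression, so neither the cell type label nor the genotype label was checked by it.

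Immediate early genes are transcribed within minutes of a growth factor, stress or depolarisation signal, without new protein synthesis. Fos and Jun proteins are basic leucine zipper factors that pair to form AP-1, which binds TGANTCA and related sites, and Jun proteins can also pair among themselves. Egr proteins are zinc finger factors that bind GC-rich sites of the form GCGNGGGCG. The signal reaches these genes largely through ERK, which activates Elk-type partners of serum response factor (SRF) at CArG boxes, and through CREB at cAMP response elements (CRE). METTL3 is the catalytic subunit, and METTL14 its RNA-binding partner, of the enzyme that places N6-methyladenosine on nascent RNA.

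The bases upstream of 4 of the genes are shown because a METTL14 peak fell on them. Each sequence is the 250 bases before an annotated transcription start, from the RefSeq promoter table (GRCm38.p6), written 5′ to 3′ on the strand of the gene. For Fos, Fosb and Egr2 the capitals mark the bases covered by a peak in all 4 METTL14 libraries, and for Jun they mark the bases covered in Mettl3 CKO replicate 2 alone. The promoter table matched 7 of the 10 genes. Egr1, Egr3 and Fosl1 had no entry, and their peaks are placed relative to the gene boundary with the lower coordinate.
Fos, plus strand, chr12:85473640-85473889: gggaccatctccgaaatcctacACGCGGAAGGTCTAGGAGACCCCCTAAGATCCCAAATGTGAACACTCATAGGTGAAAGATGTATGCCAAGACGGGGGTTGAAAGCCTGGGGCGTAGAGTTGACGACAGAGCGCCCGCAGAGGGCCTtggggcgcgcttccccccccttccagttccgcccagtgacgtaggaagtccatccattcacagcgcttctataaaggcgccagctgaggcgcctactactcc
Fosb, minus strand, chr7:19310046-19310295: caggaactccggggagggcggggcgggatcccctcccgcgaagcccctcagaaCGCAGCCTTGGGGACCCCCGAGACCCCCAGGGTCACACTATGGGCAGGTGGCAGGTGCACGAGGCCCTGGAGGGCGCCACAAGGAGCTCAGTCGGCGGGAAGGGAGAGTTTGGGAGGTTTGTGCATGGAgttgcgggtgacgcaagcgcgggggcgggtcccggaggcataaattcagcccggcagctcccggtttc
Egr2, plus strand, chr10:67537619-67537868: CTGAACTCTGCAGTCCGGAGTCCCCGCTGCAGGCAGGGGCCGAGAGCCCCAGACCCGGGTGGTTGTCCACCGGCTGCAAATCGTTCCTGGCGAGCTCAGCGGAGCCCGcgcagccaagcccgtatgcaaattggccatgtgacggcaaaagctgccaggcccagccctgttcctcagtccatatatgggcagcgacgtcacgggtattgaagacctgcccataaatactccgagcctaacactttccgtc
Jun, minus strand, chr4:95052223-95052472: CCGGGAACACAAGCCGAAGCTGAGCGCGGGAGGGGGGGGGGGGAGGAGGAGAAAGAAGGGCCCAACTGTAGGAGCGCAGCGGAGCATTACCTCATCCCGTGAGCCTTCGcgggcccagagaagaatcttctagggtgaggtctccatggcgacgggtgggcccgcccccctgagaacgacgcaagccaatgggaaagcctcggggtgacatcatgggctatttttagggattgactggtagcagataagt
The capitals cover 126 bases at Fos, from -228 to -103 relative to the start, and 129 bases at Fosb, from -197 to -69. At Egr2 they cover 108 of the printed bases, and the shared stretch goes on to lower coordinates outside the printed window.

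METTL14 peaks were found at 8 of the 10 genes, and METTL3 peaks at none. In Mettl3 CKO cells 7 and 6 of the 10 genes had a METTL14 peak, where 12.9% and 4.91% of all protein-coding genes did. In Mettl3 control cells 7 and 5 had one, where 9.71% and 11.2% of all protein-coding genes did. Egr1, Egr2, Fos, Fosb and Jund had a METTL14 peak in all 4 libraries, a pattern found at 2.53% of all protein-coding genes. Both Mettl3 CKO libraries had a METTL14 peak at 6 of the 10 (3.91% of all protein-coding genes) and both Mettl3 control libraries at 5 (5.37%). The 10 genes are short, Fosl2 being the longest at 21369 bp, and among the 12256 protein-coding genes no longer than Fosl2 the share marked in all 4 libraries was 2.41%. Among these shorter genes 3.52% were marked in both Mettl3 CKO libraries and 4.74% in both Mettl3 control libraries. Fosl1 and Junb had no METTL14 peak in any library, as did 79.2% of protein-coding genes and 83.4% of the shorter ones.

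**Figure D1:**
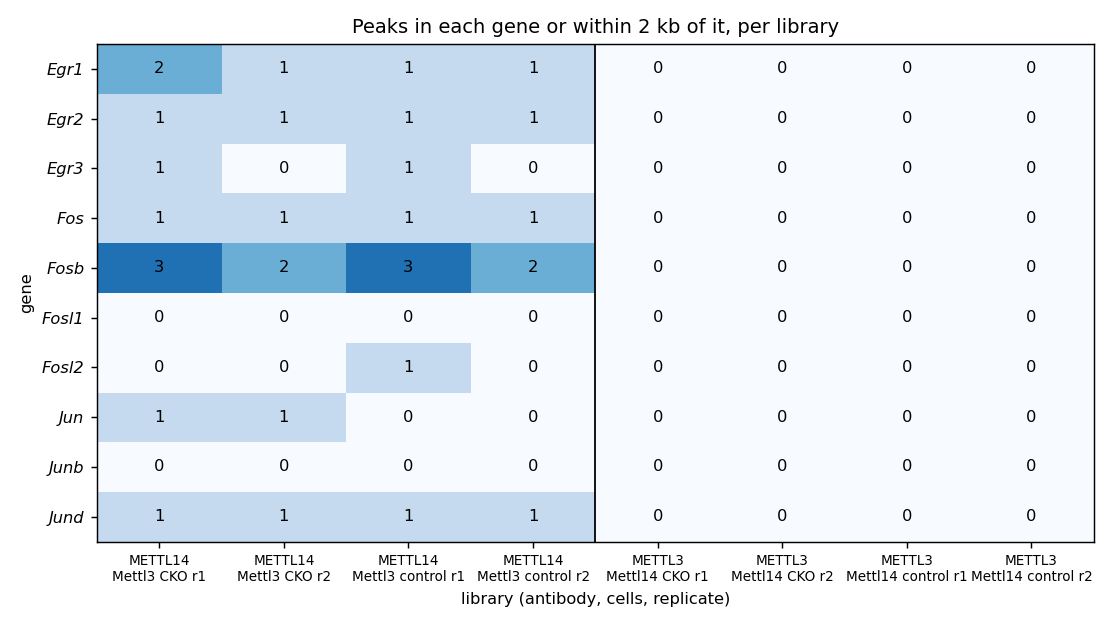
Number of peaks in each gene or within 2 kb of it (cell values and colour) for the 10 genes (rows) in the 8 libraries (columns, r1 and r2 for the replicates). Fosb has 3, 2, 3 and 2 METTL14 peaks, Fosl1 and Junb have 0 in every library, and every METTL3 column is 0.

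Among the Egr genes, Egr1 and Egr2 carried a METTL14 site at one position in all 4 libraries. Egr1, an early activator of growth response genes, lies on chromosome 18: 34861207 to 34864956. Its shared site spanned chromosome 18: 34860905 to 34861064, outside the gene. Relative to the boundary with the lower coordinate, the midpoints lay at -220 and -221 bp in Mettl3 CKO cells and at -217 and -228 bp in Mettl3 control cells. The 4 midpoints thus fell within 11 bp of each other, where the median spread over all 465 METTL14 regions with 1 peak per library was 37.0 bp. Mettl3 CKO replicate 1 had a further peak at -609 bp from the same boundary (34860524 to 34860672), which no other library had.

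Egr2, known for its part in hindbrain segments and myelinating Schwann cells, lies on chromosome 10: 67534469 to 67542188 and has 5 annotated starts. Its site spanned chromosome 10: 67537578 to 67537732, inside the gene. The midpoints were 86 and 92 bp downstream of the start at 67537566 in Mettl3 CKO cells and 87 bp downstream of it in both Mettl3 control libraries. The same bases lie upstream of a group of 3 starts that begins at 67537869, which is the window printed above. The 4 midpoints differed by 6 bp at most. Whether the peak is exonic, intronic or in a UTR was not analysed here, since the tables used give no exons.

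Egr3, a factor of muscle spindle development and of lymphocytes, lies on chromosome 14: 70077317 to 70082613. It had 1 peak in each of 2 libraries, at different places. In Mettl3 CKO replicate 1 the peak was at -624 bp from the lower-coordinate boundary (70076619 to 70076767), and in Mettl3 control replicate 1 it was inside the gene, at 1533 bp from that boundary (70078776 to 70078924). Neither peak was seen in the other replicate of its group.

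In the Fos family, Fos and Fosb were marked in every METTL14 library. Fos encodes the founding AP-1 subunit and lies on chromosome 12: 85473890 to 85477274. Its only site spanned chromosome 12: 85473639 to 85473810, upstream of the start. Relative to the start, the midpoints were at -154 and -155 bp in Mettl3 CKO cells and at -175 and -177 bp in Mettl3 control cells. The 2 Mettl3 CKO midpoints lay nearer to the start than the 2 control midpoints, and the groups did not overlap. The 4 midpoints fell within 23 bp, where the median spread over the 465 METTL14 regions with 1 peak per library was 37.0 bp. How many of those regions separate by group in this way was not counted. All 4 peaks still shared 126 bp, and a shift of this size in the position of a peak was not tested.

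Fosb, which encodes an AP-1 subunit known from stimulated neurons, had the most METTL14 peaks of the 10 genes. It lies on chromosome 7: 19302696 to 19310118, on the minus strand, with an annotated start at 19310045. It had 3 and 2 METTL14 peaks in Mettl3 CKO cells and 3 and 2 in Mettl3 control cells. The total of 10 was reached or passed by 50 protein-coding genes (0.228%), and 0.237% of protein-coding genes had 2 or more peaks in each of the 4 libraries. Some of the Fosb peaks lay 1703 to 1952 bp outside the gene, so both of its counts depend on the 2 kb window.

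The Fosb peaks fell into 4 sites along the gene. The site at the start (19310094 to 19310262) was called in all 4 libraries, with midpoints at -143 and -123 bp from the start in Mettl3 CKO cells and at -130 and -123 bp in Mettl3 control cells. A site inside the gene (19308453 to 19308618) was called in 1 Mettl3 CKO library, 1501 bp downstream of the start, and in both Mettl3 control libraries, 1518 and 1516 bp downstream. Beyond the 3′ end of the gene, both Mettl3 CKO libraries had a peak at 19300837 to 19300993, with edges 1711 and 1703 bp outside the gene. No control library had a peak there. Of 8091 merged METTL14 regions in all, 141 had this pattern and 243 the reverse, both control libraries and no Mettl3 CKO library. Mettl3 control replicate 1 had a peak near this Fosb site, at 19300596 to 19300744. This peak overlapped the lncRNA gene Gm26802 and entered the 2 kb window only by its edge, 1952 bp from Fosb.

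Fosl1 and Fosl2 encode the Fos-related antigens, AP-1 subunits without the strong activation domain of Fos. Fosl1 (chromosome 19: 5447698 to 5455938) had no METTL14 peak, and the nearest in any METTL14 list was 32188 bp from the gene. Fosl2 (chromosome 5: 32136472 to 32157840) had 1 peak, in Mettl3 control replicate 1, at -1098 bp from its start (32135300 to 32135448).

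**Figure D2:**
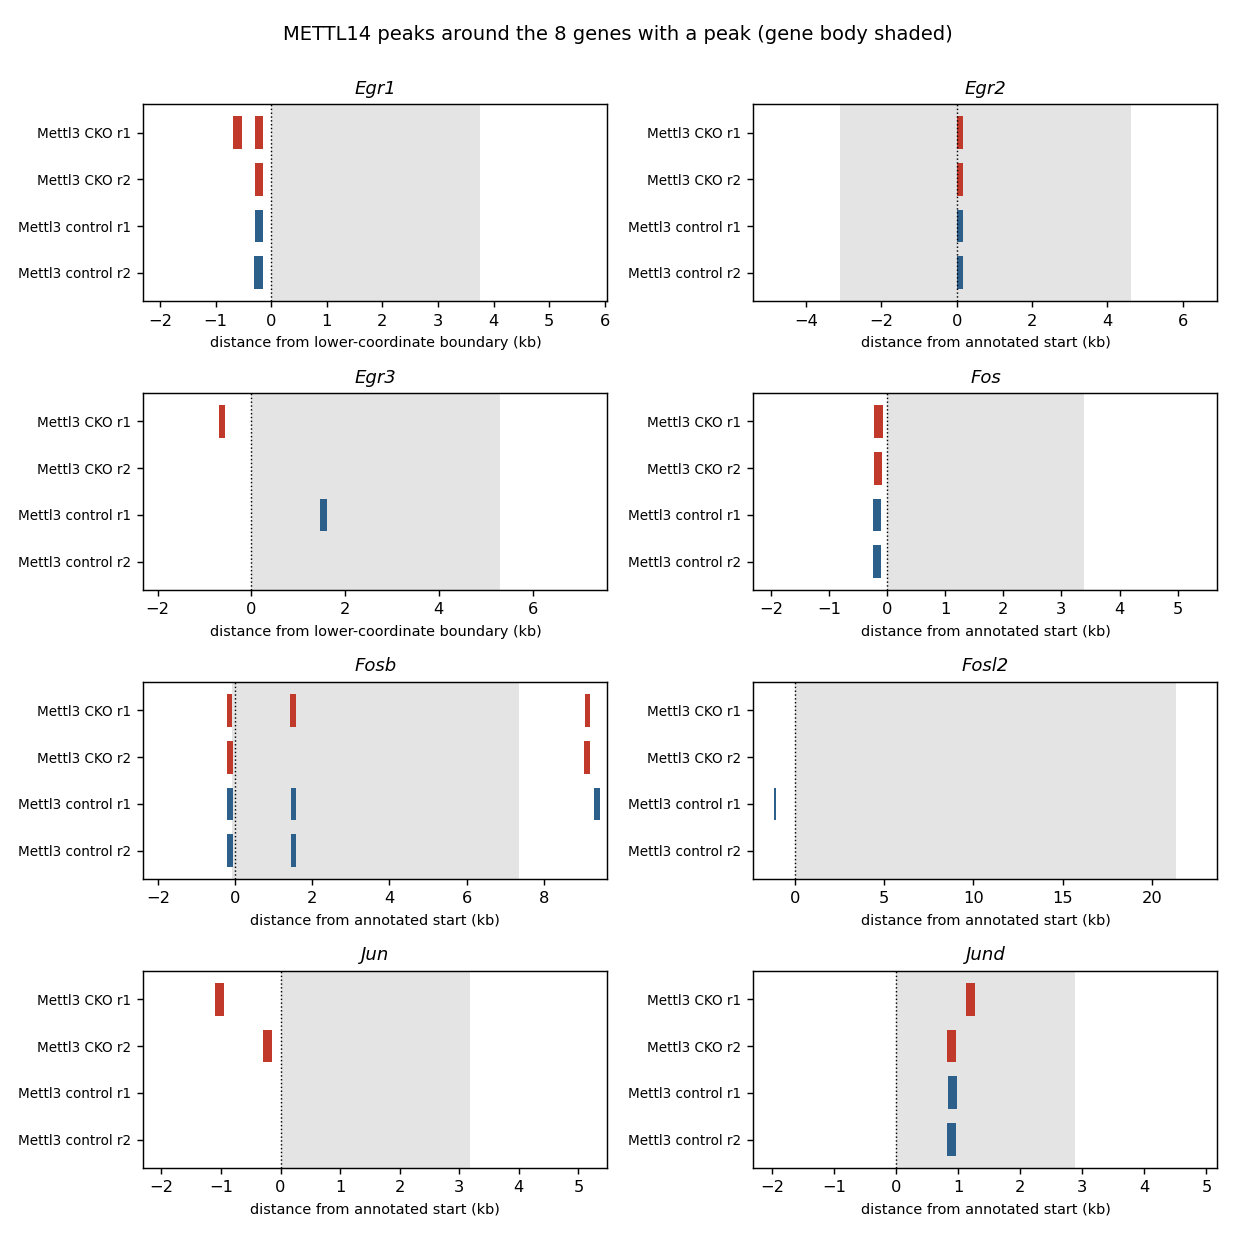
METTL14 peaks (bars, drawn at their width of 149 bp) in the 4 METTL14 libraries (rows, Mettl3 CKO in red and Mettl3 control in blue) around the 8 genes with a peak. The x axis is the distance in kb from an annotated start, or from the lower-coordinate boundary for Egr1 and Egr3, in the direction of transcription where the strand is known, and the gene is shaded. Bars line up in all 4 rows at Egr1, Egr2, Fos and the Fosb start.

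The Jun genes, which are without introns, differed from one another. Jund (chromosome 8: 70697739 to 70700616) encodes the Jun protein with the most constant expression in many cell types. Its peaks were inside the gene, downstream of the only start in the promoter table. Whether these cells use another start was not tested. The midpoints were 1192 and 893 bp downstream in Mettl3 CKO cells and 902 and 895 bp downstream in Mettl3 control cells. A single site (70698558 to 70698715) thus held both control peaks and that of Mettl3 CKO replicate 2, and the peak of Mettl3 CKO replicate 1 (70698857 to 70699005) did not overlap it. Jund was marked in all 4 libraries without a region shared by the 2 Mettl3 CKO libraries.

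Jun (chromosome 4: 95049036 to 95052222), the AP-1 subunit that also binds its own promoter, had a peak in both Mettl3 CKO libraries and in neither Mettl3 control library. This pattern was found at 0.466% of protein-coding genes and at 0.359% of those no longer than Fosl2. The reverse pattern, both control and no CKO library, was found at none of the 10, against 0.890% of protein-coding genes and 0.718% of the shorter ones. The 2 Jun peaks were at different places: at -1030 bp from the start in Mettl3 CKO replicate 1 (95053178 to 95053326) and at -216 bp in Mettl3 CKO replicate 2 (95052364 to 95052512). Both overlapped the lncRNA gene Junos, and both stood late in their lists, at 80.5% and 92.8% of the list length. Junb (chromosome 8: 84976909 to 84978748), a Jun protein that often opposes Jun, had no peak, and the nearest METTL14 peak in any list was 7229 bp from it.

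In all, the 10 genes had 32 METTL14 peaks in the 4 libraries, at 15 separate regions, of which 12 peaks had their midpoint inside the gene. None of the 32 peaks lay in or within 2 kb of another protein-coding gene, and 3 overlapped an annotated lncRNA gene. Of the 15 regions 4 were called in all 4 libraries and 8 in 1 library. Over the genome 468 of 8091 merged METTL14 regions (5.78%) were called in all 4 libraries and 5720 (70.7%) in 1. Of the 8 regions called in 1 library, 5 came from Mettl3 CKO and 3 from Mettl3 control libraries. Of 25 peaks at genes with an annotated start, 13 (52.0%) had their midpoint within 500 bp of the nearest start, and 9 of the 13 were upstream of it. For all protein-coding genes with an annotated start the share within 500 bp was 56.0%, of which 64.0% were upstream. The position of the peaks relative to starts was therefore close to that at other marked genes.

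The deposited lists give no peak height, but each has an order, whose meaning is not given in the sources used here. In that order the Egr1 site came first among the shared sites. It stood at 4.41% and 17.3% of the list in Mettl3 CKO cells and at 7.96% and 6.57% in Mettl3 control cells, a mean of 9.06% over the 4 libraries. The median of this mean over the 468 regions called in all 4 libraries was 21.4%, with quartiles of 7.22% and 36.1%. Egr2 stood at 13.2% and 43.9% in Mettl3 CKO cells and at 23.0% and 29.4% in Mettl3 control cells.

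Fos and the Fosb start were placed unevenly in Mettl3 CKO cells. Fos stood at 92.6% and 24.6% of the list in Mettl3 CKO cells and at 15.8% and 11.9% in Mettl3 control cells. The Fosb start stood at 27.5% and 97.2% in Mettl3 CKO cells and at 16.6% and 21.8% in Mettl3 control cells. The shared Jund site stood at 70.7% in Mettl3 CKO replicate 2 and at 13.8% and 14.3% in Mettl3 control cells. The Fosb site inside the gene stood at 59.2% in Mettl3 CKO replicate 1 and at 52.9% and 35.7% in Mettl3 control cells. Both Mettl3 CKO values were later than both control values at Fos and at the Fosb start, while at Egr1 and Egr2 the control values lay between the 2 Mettl3 CKO values. How many of the 468 regions called in all 4 libraries separate by group in this way was not counted. The meaning of the order is not known and the lists differ in length, so these places cannot show whether signal changed.

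**Figure D3:**
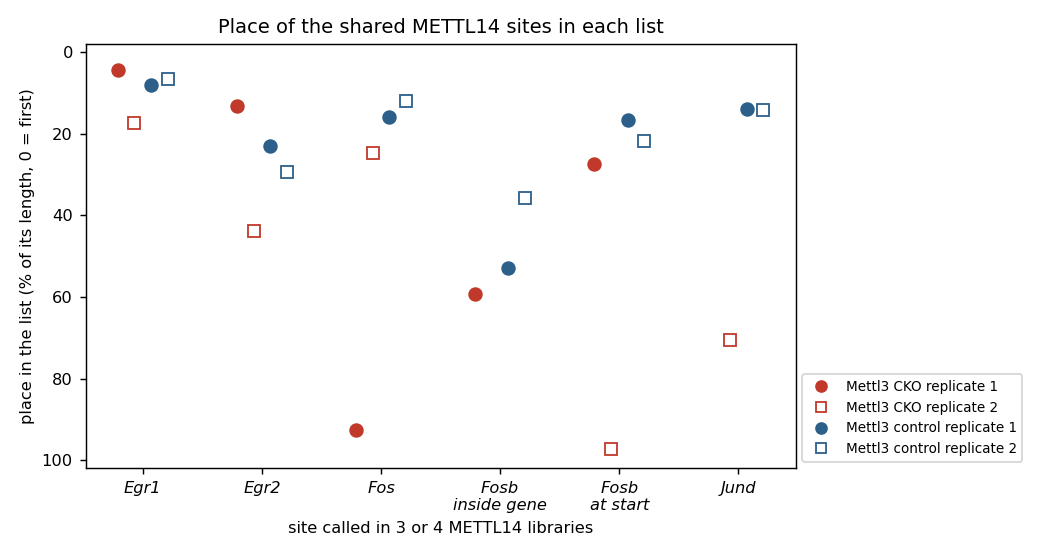
Place of each shared METTL14 site in the deposited list of each library, as a percentage of the list length (y axis, inverted, 0 = first at the top), for the 6 sites called in 3 or 4 METTL14 libraries. Mettl3 CKO is in red and Mettl3 control in blue, with filled circles for replicate 1 and open squares for replicate 2. Egr1 stays between 4.41% and 17.3%, and Fos and the Fosb start each have 1 Mettl3 CKO value near the end of the list, at 92.6% and 97.2%.

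METTL14 marking of the 10 genes was compared between Mettl3 CKO and Mettl3 control cells, which addresses whether it depends on Mettl3. The number of genes with a peak averaged 6.50 ± 0.707 in Mettl3 CKO cells and 6.00 ± 1.41 in Mettl3 control cells (SD, n = 2 each). The difference of 0.500 was smaller than the spread between libraries (two-sided exact permutation p = 1). The number of peaks averaged 8.50 ± 2.12 in Mettl3 CKO cells and 7.50 ± 2.12 in Mettl3 control cells (SD, n = 2 each), a difference of 1.00 (two-sided exact permutation p = 0.667). With 2 libraries against 2 this test cannot give a p below 0.333, and over the 5 tests made here every Benjamini-Hochberg adjusted p was 1. The difference in genes was -0.500 without Mettl3 control replicate 2 and 0 without Mettl3 CKO replicate 1. It was 1.50 without Mettl3 control replicate 1 and 1.00 without Mettl3 CKO replicate 2. The test thus gave no direction.

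Regions called in both libraries of a group were found at 4 of the 10 genes in Mettl3 CKO cells (Egr1, Egr2, Fos and Fosb), where 3.15% of all protein-coding genes and 2.82% of the shorter ones had one. In Mettl3 control cells they were found at 5 (the same 4 and Jund), where 3.82% and 3.65% did. With each list shortened to its first 1439 peaks, the length of the shortest METTL14 list, 4 and 6 genes were marked in Mettl3 CKO cells and 6 and 5 in Mettl3 control cells. Of all protein-coding genes 4.63% and 4.91% were then marked in Mettl3 CKO cells and 4.40% and 4.33% in Mettl3 control cells. Egr1, Egr2 and Fosb kept a peak in all 4 shortened lists, and the share of all protein-coding genes that did so was not counted. In the first 50% of each list the groups did not overlap, with 4 and 3 genes in Mettl3 CKO cells and 6 and 5 in Mettl3 control cells. All protein-coding genes were marked there at 6.47% and 2.14% in Mettl3 CKO cells and at 4.83% and 5.49% in Mettl3 control cells. This difference of -2 had a two-sided exact permutation p of 0.333, the smallest possible.

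METTL3 peaks were at none of the 10 genes in any library. All protein-coding genes were marked with METTL3 at 0.393% and 0.584% in Mettl14 CKO cells and at 0.635% and 0.566% in Mettl14 control cells, so a count of 0 among 10 genes is close to that background. Over all 4 METTL3 libraries 1.53% of protein-coding genes were marked in at least 1, with 0.192% marked in both Mettl14 CKO libraries and 0.192% in both Mettl14 control libraries. A count of 0 allows up to 1.24% and 0.872% of the peaks in the Mettl14 CKO lists and up to 0.850% and 0.880% in the Mettl14 control lists (3 peaks of each list, for counting error only). The nearest METTL3 peak in any list was 26348 bp from Jund and more than that from each of the other genes, with 12021063 bp at Jun as the farthest. In control cells the number of marked genes averaged 6.00 ± 1.41 with METTL14 and 0 with METTL3 (SD of METTL14, n = 2 each), a difference of 6.00 (two-sided exact permutation p = 0.333, the smallest possible). Antibody and cell line changed together in this comparison, and so did list length. With the 4 control lists shortened to 341 peaks the difference was 1.00. Egr1 alone was then marked with METTL14, in both control libraries, where 0.580% and 0.562% of protein-coding genes were.

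Upstream of their starts the GC content was above that of the median promoter at 6 of the 7 genes with an annotated start. In the 250 bases before the start the GC content was 58.4% at Fos, 68.8% at Fosb, 64.4% at Fosl2, 61.2% at Jun and 66.4% at Junb, and between 54.0% and 71.2% at the 5 starts of Egr2. The median over 32851 promoters was 52.4%, with an upper quartile of 61.2%. The same windows held 15 to 26 CpG dinucleotides, where the median promoter held 6 and the upper quartile was 16. Fosb, Fosl2 and Junb were above both upper quartiles, Fos and Jun above neither, and the Egr2 starts lay on both sides. Jund had 47.6% GC and 3 CpG, upstream of an annotated start whose use in these cells was not tested. Fosl2 and Junb had no shared METTL14 site, and their GC content lay between those of Fos and Fosb. Whether GC content goes with METTL14 marking was not tested.

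Motifs for the factors that control these genes were searched on both strands of the same 250 bases. The CRE half-site TGACG was present at 4 of the 7 genes (Egr2, Fos, Fosb and Junb), against 17.8% of all promoters. The full CRE TGACGTCA (1.55% of promoters) and the AP-1 site TGANTCA (6.75%) were at none. The longer form TGANNTCA was present at Jun and Jund, against 11.9% of promoters. A CArG box, the SRF motif, was present at Egr2 alone of the 7, against 1.47%, and TATAAA at Fos alone, against 12.4%. The GC box GGGCGG was present at 5 of the 7, against 32.7%, and CCAAT at 3, against 33.8%. The Egr motif GCGNGGGCG was present at Fosb and Fosl2, against 4.70% of promoters, and at both it overlapped a GC box. Egr2 was searched at 5 starts and the other genes at 1 each. Bases farther upstream were not searched, nor were Egr1, Egr3 and Fosl1, so an absent match holds for these windows only.

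Most of these matches in the printed sequences lay outside the capitals. In the printed Fos sequence TGACG occurs from -129 to -125, in the capitals, and again from -66 to -62, in lower case. In the printed Egr2 sequence the CArG box is from -72 to -63 and in lower case. At Fosb TGACG is from -60 to -56 and GCGGGGGCG from -50 to -42, both in lower case. The Fosb TGACG was still inside the peaks of 3 of the 4 libraries, all but Mettl3 CKO replicate 1, since the capitals mark only bases covered in all 4. In the Jun sequence TGACATCA is from -45 to -38, in lower case. A match describes the letters of the window and is not a measured binding site.

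Genes related to the Fos, Jun and Egr genes, among them other immediate early genes, were marked in part. Of 62 such genes in 4 lists, 17 and 7 had a METTL14 peak in Mettl3 CKO cells and 7 and 13 in Mettl3 control cells (difference 2, two-sided exact permutation p = 1). These are 27.4% and 11.3% of the 62 in Mettl3 CKO cells and 11.3% and 21.0% in Mettl3 control cells, where all protein-coding genes were marked at 12.9% and 4.91% in Mettl3 CKO cells and at 9.71% and 11.2% in Mettl3 control cells. The difference was -3 without Mettl3 CKO replicate 1, 7 without Mettl3 CKO replicate 2, -1 without Mettl3 control replicate 1 and 5 without Mettl3 control replicate 2. No METTL3 library had a peak at any of the 62. METTL14 peaks were absent from 40 of the 62 (64.5%) in all 4 libraries, against 79.2% of protein-coding genes. Map2k2 alone of the 62 (1.61%) had a peak in all 4, against 2.53% of protein-coding genes. These counts and those of the 10 genes were not tested against each other.

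Other immediate early genes (24) had a METTL14 peak at 8 and 4 members in Mettl3 CKO cells (33.3% and 16.7%) and at 2 and 6 in Mettl3 control cells (8.33% and 25%). Dusp1, a phosphatase that switches off MAP kinases, was marked at -345 and -341 bp from its start in Mettl3 CKO cells and at -240 bp in 1 control library. Klf2, a Krüppel-like factor active in naive stem cells, was marked at -134 and 393 bp from its start in Mettl3 CKO cells and at -177 bp in 1 control library. Rhob, a small GTPase, was marked at -218 bp in 1 Mettl3 CKO library and at -294 and -259 bp in the control libraries. Nr4a3, an orphan nuclear receptor, was marked in 1 Mettl3 CKO library, at -2222 bp from its nearest start. Both control libraries had peaks closer to it, at -322 and -592 bp, and control replicate 1 had a second at -1901 bp. The immediate early genes Arc, Atf3, Egr4, Ier2, Myc and Nr4a1 were among 14 of the 24 with no METTL14 peak. These 14 are 58.3% of the list, where 79.2% of protein-coding genes had none.

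Of the 15 ERK and SRF activators 2 and 2 were marked in Mettl3 CKO cells (13.3% each) and 1 and 2 in Mettl3 control cells (6.67% and 13.3%), near the shares of all protein-coding genes except in Mettl3 CKO replicate 2, where 4.91% were marked. Map2k2, which encodes the kinase MEK2, had peaks 86, 556 and 478 bp downstream of its start in Mettl3 CKO cells and 177 and 547 bp downstream in Mettl3 control cells. Elk1, Elk3, Elk4 and Creb1 had none. Of the 13 AP-1 partners and kinases 6 and 1 were marked in Mettl3 CKO cells (46.2% and 7.69%) and 1 and 3 in Mettl3 control cells (7.69% and 23.1%). Nfe2l2, which encodes the oxidative stress factor NRF2, was marked at 244 bp from its start in 1 Mettl3 CKO library and at -85 and -174 bp in the control libraries. Of the 10 Egr corepressors and ERK feedback inhibitors 1 and 0 were marked in Mettl3 CKO cells (10% and 0%) and 3 and 2 in Mettl3 control cells (30% and 20%). The lists are short, and their shares were not tested against those of all genes. Dusp4, a nuclear MAP kinase phosphatase, had a peak 276 bp outside the gene in 1 Mettl3 CKO library and 137 and 138 bp outside it in the control libraries.

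**Figure D4:**
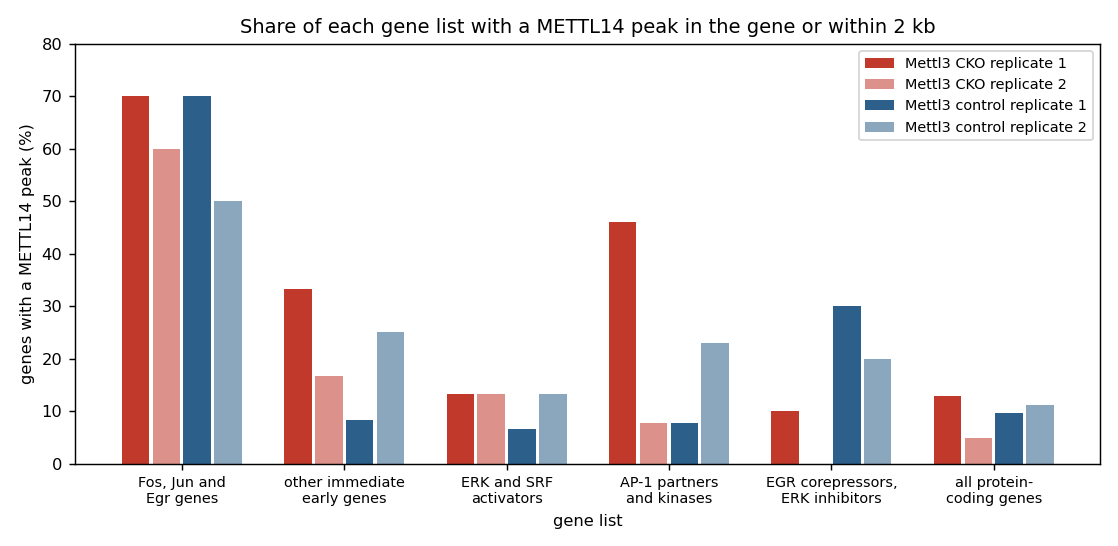
Share of each gene list with a METTL14 peak in the gene or within 2 kb (y axis, percent of the list, from 0), for the Fos, Jun and Egr genes (10), the 4 related lists (24, 15, 13 and 10 genes) and all 21900 protein-coding genes. Bars are single libraries, Mettl3 CKO in red and Mettl3 control in blue, with replicate 2 paler. The Fos, Jun and Egr bars stand at 70%, 60%, 70% and 50%, and those of all protein-coding genes at 12.9%, 4.91%, 9.71% and 11.2%.

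Other genes shared the pattern of each gene marked in all 4 METTL14 libraries, judged by the number of peaks per library over the 8 libraries and then by the mean place of the first peak in the METTL14 lists. For Egr2, Fos and Jund, with 1 peak in each METTL14 library, 248 genes had identical counts. The closest in place were Wars2, Agpat1 and Rnf5 for Egr2, Sugt1, Tecr and Mtrf1l for Fos, and Rab2b, Tox4 and Slc43a2 for Jund. For Egr1 28 genes had identical counts, with Ttc6 and Mast3 among the closest in place. For Fosb 2 genes had identical counts, Lhx4 and Nr2e1, which encode developmental transcription factors, and Ankrd10 differed by 1 peak.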

How the data were processed

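CUT&RUN peak lists of 8 libraries, 2 per group, were analysed. Each deposited list gives peak positions on mm10 for 1 library and a score that was 1 for every peak, so replicates were not pooled and no height or p-value was given. Tools listed in the submitters' processing notes are HOMER, SAMtools, CASAVA, Bowtie2 2.4.1 and Trimmomatic 0.38, without saying what each did. The sources used here give no peak threshold, background library or read depth. The number of peaks per list sets the precision.

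Genes and promoters came from RefSeq tables for GRCm38.p6, the assembly behind mm10. Peaks were assigned to genes extended by 2 kb with an overlap of at least 1 bp (Python 3.11.15, numpy 2.4.6, pandas 2.3.3), checked on simulated peaks. Overlapping METTL14 peaks were merged into regions. Counts per library were compared with exact permutation tests of the library labels, adjusted over 5 tests. The alternatives were other windows, a window around starts, shorter lists, the peak midpoint, a 50% reciprocal overlap and leaving out each library. The members and lists were chosen with earlier results of these data known. Named were all 10 members and, per related list, up to 6 genes marked in at least 3 METTL14 libraries. For each member marked in all 4, the 3 genes with the most similar peak counts were also named, except 1 that is not reported here. Genes named beyond this rule were chosen after their values were seen.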

Additional observations from a re-analysis of the deposited data

How the results depend on the processing

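METTL3 counts at the 10 genes were 0 under every alternative run. The METTL14 minus METTL3 difference stayed positive, from 1.00 with equal list lengths to 7. The Mettl3 CKO minus control differences changed sign with the part of the lists used and with the library left out, and the cause was not tested. No window reversed the differences at the 10 genes, while a window around starts reversed that of the related genes. The difference in marked genes was -0.500 with lists of equal length and -2 in the first 50% of each list, and -0.500 to 1.50 when 1 library was left out. The difference in peaks was 0 within 2 kb of annotated starts and -1.5 in the first 50% of each list, and -0.500 to 2.50 when 1 library was left out. For the 62 related genes it was -0.500 within 2 kb of annotated starts and -1 in the first 50% of each list, and -3 to 7 when 1 library was left out. The METTL14 minus METTL3 difference was 5.00 to 7 when 1 library was left out. Genes with a region in both Mettl3 CKO libraries numbered 2 in the first 50% of each list, against 4 in full lists, and in control cells the number was 5 in both cases. The share of all protein-coding genes with such a region in the first 50% was not counted. The lists cut there still differed in length. They marked 6.47% and 2.14% of all protein-coding genes in Mettl3 CKO cells and 4.83% and 5.49% in Mettl3 control cells. When 1 library was left out here, genes with any peak in the remaining library of the group were counted instead. These were 7 of the 10 in Mettl3 CKO replicate 1 and 6 in Mettl3 CKO replicate 2. They were 7 in Mettl3 control replicate 1 and 5 in Mettl3 control replicate 2.

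The libraries share only a replicate number. With the replicate number as a block the differences were 0.500 (exact permutation p = 1), 1.00 (p = 0.500), 0 (p = 1), 6.00 (p = 0.500) and 2.00 (p = 1), where the smallest possible p is 0.500. Deviations of same-numbered libraries correlated at -0.0458 for METTL14 and -0.0588 for METTL3 across 21900 genes. No p reached 0.05 in any fit, the smallest possible being 0.333 without the block. The read depth behind each list is unknown, and the length of a list bounds how many genes it can mark.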
